A study of Mus musculus with 6 samples.

Results

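Mouse retinas were examined after acute white light, with and without minocycline. The genes followed were the death receptors Fas and Tnfrsf1a, the TNF receptor Tnfrsf1b, the adaptor Fadd and the kinases Ripk1 and Ripk3. The initiator protease Casp8 and the necroptosis effector Mlkl were followed too. The genes were chosen by symbol, and all 8 symbols were found among the 23420 genes of the deposited count table. The data set held 6 libraries of retinal RNA, 2 biological replicates of each of 3 groups. Per the labels the mice were of strain CD1. Control mice had no treatment, light-exposed mice received light of 10000 lux for 1 h, and the minocycline group received the same light with 45 mg/kg minocycline injected into the peritoneum daily for 4 days. Retinas of both light-exposed groups were analysed 4 days after the light. The study's methods instead describe albino BALB/cJ mice of both sexes aged 10 to 14 weeks, 15000 lux after dark adaptation and pupil dilatation, and minocycline over 5 days that began before the light. No allele or transgene was named for any group. Which light-exposed animals received solvent injections, and how many retinas entered a library, is not given in the sources used here.

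Death receptors carry a cytoplasmic death domain that recruits Fadd and thereby Casp8, the protease that starts the extrinsic pathway of apoptosis. Where Casp8 is held inactive, Ripk1 can engage Ripk3, which phosphorylates Mlkl so that it permeabilises the plasma membrane, a lytic death called necroptosis. Tnfrsf1a, the widely expressed TNF receptor, has a death domain, whereas Tnfrsf1b, the TNF receptor typical of leukocytes and microglia, lacks it and signals through Traf adaptors to survival and inflammatory genes. In light damage of the retina the dying cells are mainly rod photoreceptors, and microglia, the resident phagocytes, enter the photoreceptor layer.

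Total counts ranged from 15205930 in control 1 to 22856922 in a minocycline library. Levels are given as CPM, the count per 1000000 counts of a library whose total was adjusted by the trimmed mean of M-values (TMM). A gene with 0 counts in a library could still have an expected count of up to 3, a limit of 0.131 to 0.213 CPM. This limit covers counting error only, since PCR copies are not independent molecules. The 2 minocycline libraries share a column header and cannot be numbered, and the names minocycline A and minocycline B are used for them. Defining markers of the labelled tissue were present, as none of the 9 rod genes listed was at 0 in any library. Control 1 stood apart in sex, with 77778 counts of Xist against 25 to 188 in the other libraries. Light 2 stood apart from light 1 in microglial RNA. The summed level of 15 microglia markers was 65.0 and 73.3 CPM in the controls, 475 CPM in light 1, 1500 CPM in light 2, 128 CPM in minocycline A and 61.6 CPM in minocycline B, and no marker of this list was at 0. The rod list summed to 76200 and 97000 CPM in the controls, 57100 and 40500 CPM after light, and 82700 and 89300 CPM with minocycline. In whole retina, fewer cells of a type and less RNA per cell cannot be told apart.

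The sequences before the transcription starts of 3 genes that were higher after light are shown because they differ in the letters of inflammatory transcription factor motifs. They are the 250 bases upstream of the RefSeq start in GRCm38.p6, read along the gene's strand. The RefSeq start is not always the outer end of the gene in GENCODE M21, from which the gene coordinates below are taken. The Casp8 start lies 7128 bases inside the gene, and that of Tnfrsf1a 361 bases inside, so that its window holds 36 exon bases of Tnfrsf1a itself. Capitals mark the interferon-stimulated response element (ISRE, a pair of GAAA letters with 2 bases between), the gamma-activated site TTCNNNGAA (GAS, bound by STAT dimers), the AP-1 site TGANTCA and the PU.1 core GAGGAAG, searched on both strands.
Tnfrsf1b, chr4:145246871-145247120, minus strand: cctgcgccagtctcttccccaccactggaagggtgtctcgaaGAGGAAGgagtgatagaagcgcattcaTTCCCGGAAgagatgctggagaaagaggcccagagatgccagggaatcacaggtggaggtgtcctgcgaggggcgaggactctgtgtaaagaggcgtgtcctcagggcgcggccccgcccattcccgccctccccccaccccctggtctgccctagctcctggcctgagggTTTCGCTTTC
Fas, chr19:34290409-34290658, plus strand: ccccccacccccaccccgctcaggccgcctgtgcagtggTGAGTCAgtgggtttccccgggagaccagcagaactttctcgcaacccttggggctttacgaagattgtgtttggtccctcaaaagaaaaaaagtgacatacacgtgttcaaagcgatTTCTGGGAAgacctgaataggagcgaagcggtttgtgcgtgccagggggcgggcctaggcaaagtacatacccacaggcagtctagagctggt
Casp8, chr1:58802252-58802501, plus strand: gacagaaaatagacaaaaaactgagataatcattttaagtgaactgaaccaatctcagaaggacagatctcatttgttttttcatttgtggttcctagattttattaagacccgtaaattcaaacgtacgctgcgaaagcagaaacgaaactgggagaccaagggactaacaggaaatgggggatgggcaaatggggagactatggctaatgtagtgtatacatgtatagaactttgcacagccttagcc

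In the Tnfrsf1b sequence, the ISRE letters began 10 bases, the GAS letters 181 bases and the PU.1 core 208 bases before the start. The Fas sequence held GAS letters 93 bases and AP-1 letters 211 bases before the start. The Casp8 sequence held none of these 4 motifs and has a GC content of 39.6%, against 62.8% for Tnfrsf1b and 56.4% for Fas. The corresponding window of Tnfrsf1a held GAS letters 244 bases before the start, TTCCGTGAA. No match overlapped that of another motif. Among 27025 upstream windows of the same length, 1 for each gene, 3.04% held the ISRE, 7.18% the GAS, 6.87% the AP-1 site and 10.4% the PU.1 core. RefSeq lists 9 starts for the 8 genes, as Ripk1 has 2. The first Ripk1 start and those of Fadd, Ripk3 and Mlkl held none of these 4 motifs, and the second Ripk1 start held GAS letters and a PU.1 core. The GC box GGGCGG, present in 32.9% of windows, was found in those of Tnfrsf1b, Fas, Fadd, Ripk1 and Ripk3. The TATA box TATAAA, in 13.0% of windows, and the NF-kB consensus, in 7.01%, were found in none of the 9. A match is a description of letters in a window and no evidence of binding.

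The first comparison asked which of the genes responded to light. Transcripts of the receptors Fas, Tnfrsf1a and Tnfrsf1b and of the protease Casp8 rose after light, by 5.16-fold to 30.1-fold, while the shared intermediates Fadd and Ripk1 were not called. Ripk3 and Mlkl had too few counts to pass the filter on low counts that precedes the test. Thus 4 of the 6 tested genes were called higher and 0 lower, where 7.52% of all 14349 tested genes were called higher. A call was an adjusted p below 0.05 (edgeR quasi-likelihood test, Benjamini-Hochberg). Fas, Tnfrsf1b and Casp8 passed the filter through the light libraries, with 3 to 11 counts in each control. Requiring at least 10 counts in every library removed them from the test, and Tnfrsf1a was still called, as were 6.77% of tested genes. All 4 called genes also passed the study's log2 fold cutoff of at least 2, which 2.89% of tested genes passed with the adjusted p. Of the 6 tested genes, all but Ripk1 had both light libraries above both controls, an ordering shown by 30.6% of all tested genes. In the same genes both light libraries lay above the other 4 libraries, as in 17.9% of 14713 genes with sufficient counts over the 3 groups. Ripk3 and Mlkl, which were not tested, showed both orderings. Light 1 held 2 counts of Ripk3 against 1 in control 2, and for both genes it held as many counts as minocycline A. The p-values measure the spread between libraries of 2 per group.

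**Figure D1:**
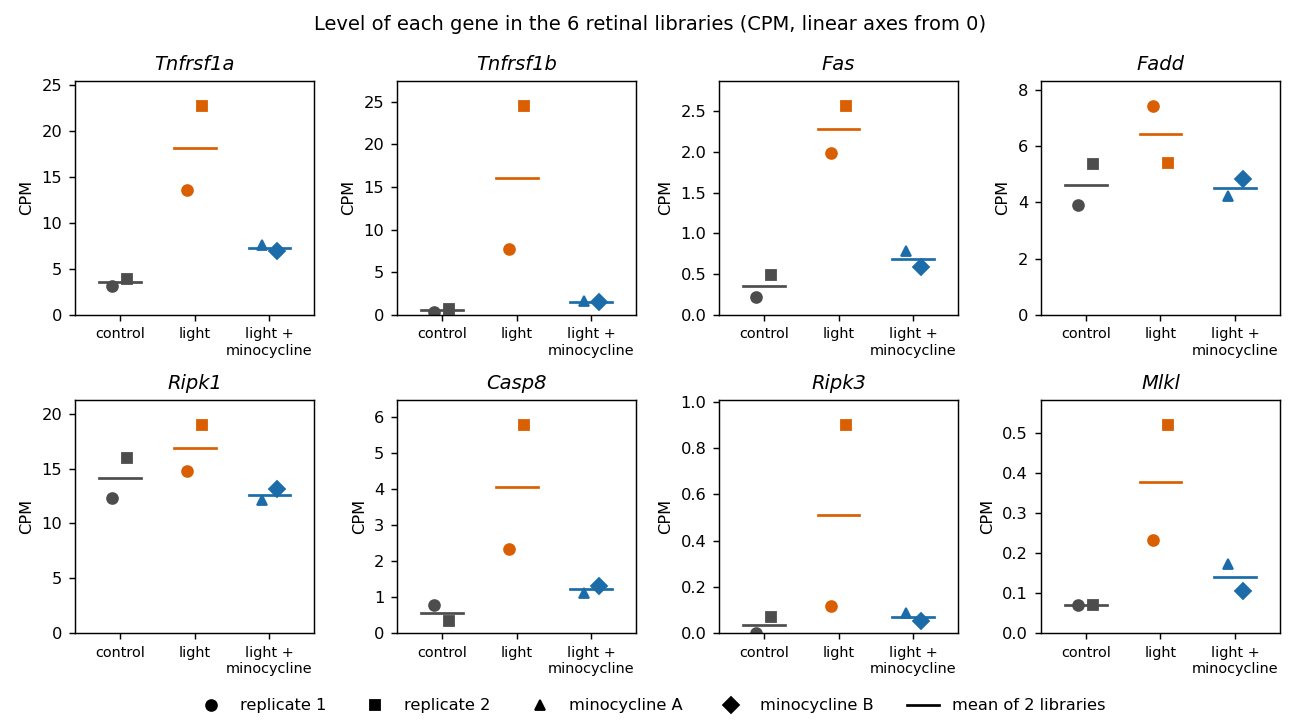
Level of each gene in CPM (y axes, linear, from 0) in the control, light and light plus minocycline groups (x axes). Points are libraries and lines are means of 2 libraries. For Tnfrsf1a, Tnfrsf1b, Fas and Casp8 both light libraries lie above the other 4, while Ripk1 of light 1 (14.8 CPM) lies below control 2 (16.0 CPM).

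Tnfrsf1b (chr4:145213463-145246870, minus strand) showed the largest fitted change of the 6 tested genes. It held 5 and 10 counts in the controls, 132 in light 1, 516 in light 2, 36 in minocycline A and 29 in minocycline B. Control retinas averaged 0.530 ± 0.247 CPM, light-exposed retinas 16.1 ± 11.9 CPM and minocycline-treated retinas 1.55 ± 0.0215 CPM (SD, n = 2). The light libraries stood above all others without overlap, and light 2 held 3.18 times the level of light 1, close to the ratio of 3.16 for the microglia list. The log2 fold change of light against control was 4.91 (SE 0.76, edgeR adjusted p = 0.0211).

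Tnfrsf1a (chr6:125349362-125362484, plus strand) was the more abundant TNF receptor per transcript length in control retinas. It held 44 and 56 counts in the controls, 233 in light 1, 479 in light 2, 175 in minocycline A and 130 in minocycline B. These counts correspond to means of 3.54 ± 0.577 CPM for control, 18.2 ± 6.46 CPM for light and 7.25 ± 0.516 CPM for minocycline (SD, n = 2). The 3 groups did not overlap, with the minocycline libraries between the others. The log2 fold change after light was 2.37 (SE 0.31, edgeR adjusted p = 0.00627), the smallest adjusted p of the 6 tested genes. The light libraries differed by 1.67 times.

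Fas (chr19:34290666-34327772, plus strand), the receptor of Fas ligand, held 3 and 7 counts in the controls, 34 in light 1, 54 in light 2, 18 in minocycline A and 11 in minocycline B. Its mean was 0.353 ± 0.198 CPM for control, 2.27 ± 0.409 CPM for light and 0.683 ± 0.142 CPM for minocycline (SD, n = 2). The light libraries again stood above all others and differed by 1.29 times, less than for the other 3 called genes. The log2 fold change after light was 2.67 (SE 0.53, edgeR adjusted p = 0.0161). Control 1, with 3 counts of Fas, was at the limit of detection.

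Casp8 (chr1:58795374-58847503, plus strand), the initiator caspase shared by Fas and Tnfrsf1a, held 11 and 5 counts in the controls, 40 in light 1, 122 in light 2, 26 in minocycline A and 25 in minocycline B. The mean level was 0.567 ± 0.304 CPM for control, 4.06 ± 2.44 CPM for light and 1.23 ± 0.136 CPM for minocycline (SD, n = 2). All 3 groups were separate, with light highest and control lowest. The log2 fold change after light was 2.84 (SE 0.58, edgeR adjusted p = 0.0197). Light 2 held 2.48 times the level of light 1.

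The calls of these 4 genes depended on the libraries entered. Without control 1, 0 of the 8 genes were called, with edgeR adjusted p of 0.0651 for Tnfrsf1a, 0.0802 for Casp8, 0.0887 for Fas and 0.168 for Tnfrsf1b. Without control 2, again 0 were called, with edgeR adjusted p of 0.0781 for Tnfrsf1a, 0.0927 for Fas, 0.156 for Casp8 and 0.202 for Tnfrsf1b. Few genes of any kind were called higher in these fits with a single control, 4 of 14862 and 20 of 14853. The fitted log2 fold change without control 1 or control 2 was 3.51 or 2.37 for Casp8 and 2.19 or 3.37 for Fas. It was 2.20 or 2.53 for Tnfrsf1a and 4.50 or 5.47 for Tnfrsf1b. A positive sign was fixed in advance, since both light libraries lay above both controls for these 4 genes. Without light 2, the library with more microglial RNA, Tnfrsf1b (log2 fold change 3.84), Fas (2.47) and Tnfrsf1a (1.95) were called and Casp8 was not (log2 fold change 2.03, edgeR adjusted p = 0.0638), beside 3.05% of all tested genes called higher. Without light 1, these 4 genes and Ripk3 (log2 fold change 4.41, edgeR adjusted p = 0.0176) were called, beside 11.4% of all tested genes. Each of these 4 fits leaves 1 library in an arm, which is assumed to vary like the other group.

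Fadd (chr7:144577318-144582463, minus strand), the adaptor between death domains and Casp8, held 55 and 76 counts in the controls, 127 in light 1, 114 in light 2, 97 in minocycline A and 91 in minocycline B. Both light libraries were above both controls, but light 2 (5.41 CPM) was next to control 2 (5.35 CPM). The log2 fold change was 0.47, with a 95% confidence interval of -0.25 to 1.19 and an edgeR adjusted p of 0.373. It was the only one of the 8 genes that was lower in light 2 than in light 1, by a ratio of 0.730. Fadd exons overlap those of the antisense gene Faddos over 239 bases, and the strand setting of the counting is not given in the sources used here, so reads of this stretch could not be assigned with certainty.

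Ripk1 (chr13:34002363-34037147, plus strand), the kinase at the branch between survival, apoptosis and necroptosis, held 173 and 227 counts in the controls, 253 in light 1, 400 in light 2, 278 in minocycline A and 247 in minocycline B. Light 1 lay between the controls, so the groups overlapped. The log2 fold change after light was 0.26, with a 95% confidence interval of -0.24 to 0.77 and an edgeR adjusted p of 0.488. Ripk1 exons overlap those of Gm17084 on the same strand and of Serpinb6a on the opposite strand, over 752 bases together, and its counts are uncertain to that extent.

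Ripk3 (chr14:55784995-55788865, minus strand) and Mlkl (chr8:111311797-111338177, minus strand), the kinase and the pore-forming effector of necroptosis, were close to the limit of detection. Ripk3 held 0 and 1 counts in the controls, 2 in light 1, 19 in light 2, 2 in minocycline A and 1 in minocycline B. Of its 21 counts after light, 19 were in light 2, and the 2 counts of light 1 equalled those of minocycline A. The ratio of pooled CPM of light to control was 15.5, with an exact 95% interval from the counts of 2.5 to 643. Mlkl held 1 and 1 counts in the controls, 4 in light 1, 11 in light 2, 4 in minocycline A and 2 in minocycline B, and its ratio of light to control was 5.55 with an interval of 1.29 to 50. These intervals cover counting error only and not the spread between mice. When the filter on low counts was omitted, the edgeR adjusted p was 0.0690 for Ripk3 and 0.192 for Mlkl.

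**Figure D2:**
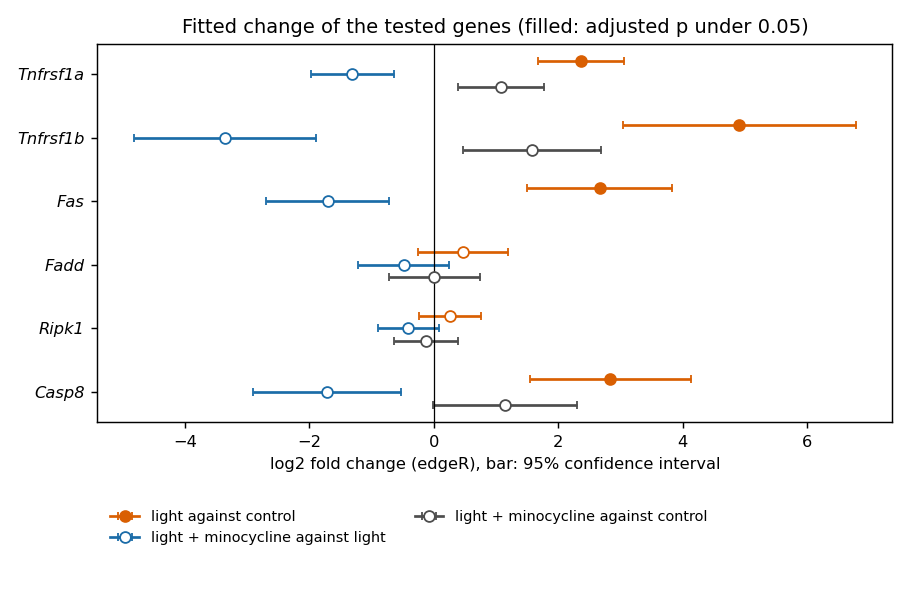
Fitted log2 fold change (x axis, edgeR) of the tested genes (y axis) in the 3 comparisons, with 95% confidence intervals as bars and filled symbols for an adjusted p below 0.05. The 4 filled symbols are Tnfrsf1b, Casp8, Fas and Tnfrsf1a in light against control, while the intervals of Fadd and Ripk1 include 0 in every comparison and Fas was not tested for minocycline against control.

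The second comparison set light with minocycline beside light alone. No group received minocycline without light, so an effect on the response to light cannot be told apart from one that does not need light. In every one of the 8 genes both minocycline libraries lay below both light libraries, an ordering shown by 28.7% of the 14750 tested genes. For Ripk3 and Mlkl, which are not among the tested genes, light 1 and minocycline A held equal counts (2 and 4) and were ordered only by library size. No gene of the 8 was called by edgeR in either direction, where 0.0407% of all tested genes (6) were called lower and 0.0136% (2) higher. The fitted log2 fold change of minocycline against light was -3.36 for Tnfrsf1b (SE 0.60, edgeR adjusted p = 0.0709), -1.31 for Tnfrsf1a (SE 0.28, edgeR adjusted p = 0.0789), -1.71 for Fas (SE 0.42, edgeR adjusted p = 0.0914) and -1.71 for Casp8 (SE 0.51, edgeR adjusted p = 0.126). These 4 genes had an unadjusted edgeR p below 0.05, as did 12.1% of tested genes in the lower direction. Fadd had a log2 fold change of -0.49 with a 95% confidence interval of -1.22 to 0.24, and Ripk1 of -0.41 with an interval of -0.90 to 0.08 in the edgeR fit. For Ripk3 the ratio of pooled CPM was 0.130 (exact interval 0.0249 to 0.437) and for Mlkl it was 0.365 (0.116 to 0.995).

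Other fits of the same libraries called some of the receptors. DESeq2 called Tnfrsf1b (adjusted p = 6.51e-08) and Tnfrsf1a (adjusted p = 0.00335) lower with minocycline than with light alone, beside 5.01% of all genes it tested. A single edgeR fit to all 6 libraries called the same pair, with adjusted p of 0.0355 and 0.0450, beside 2.40% of tested genes. Without light 1, Tnfrsf1b, Tnfrsf1a and Casp8 were called lower (edgeR adjusted p of 0.0013, 0.015 and 0.0301), beside 4.64% of tested genes. Without light 2, 0 of the 8 were called, beside 0.180% of tested genes called lower. The fitted change of Tnfrsf1b was -3.97 without light 1 and -2.31 without light 2, that of Tnfrsf1a -1.64 and -0.91, and that of Casp8 -2.23 and -0.93. Here too the lone light library is assumed to vary like the minocycline group. Over the 12 alternative fits, the edgeR or DESeq2 adjusted p of Tnfrsf1b ranged from 6.51e-08 to 0.325 and that of Fas from 0.0629 to 0.564. Markers of other tissues of the eye moved with the minocycline libraries. The 8 corneal epithelium markers summed to 194 and 275 CPM with minocycline against 2.46 to 15.2 CPM in the other libraries, with up to 3 of the 8 at 0 there. The 8 smooth muscle and stroma markers summed to 90.4 and 446 CPM against 8.74 to 23.7 CPM, and none was at 0. The 8 pigment epithelium and pigment cell markers summed to 334 and 1230 CPM against 139 to 376 CPM, with none at 0. Of these, Pmel, Tyr, Mlana and Dct were higher in both minocycline libraries than in both light libraries, Rpe65, Lrat, Rgr and Ttr were not, and edgeR called none of the 8. Their part in the levels of the 8 genes was not tested.

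The third comparison set the treated, light-exposed retinas beside the unexposed controls. It shares its control libraries with the first comparison and its minocycline libraries with the second, so the 3 sets of values are not independent. None of the 5 tested genes was called in either direction by edgeR, where 0.162% of 14181 tested genes were called higher and 0.0% lower. DESeq2 called 0 of the 8 genes and 1.06% of all its tested genes higher. Tnfrsf1a, with both minocycline libraries at 1.95 and 2.15 times the control mean, had a log2 fold change of 1.08 (95% confidence interval 0.39 to 1.77, edgeR adjusted p = 0.345). Tnfrsf1b, at 2.90 and 2.96 times the control mean, had a log2 fold change of 1.58 (0.48 to 2.68, edgeR adjusted p = 0.417). Both had an unadjusted edgeR p below 0.05, as had 5.39% of tested genes in the higher direction. Casp8 had a log2 fold change of 1.15 (-0.01 to 2.30, edgeR adjusted p = 0.710), which became 1.82 without control 1 and 0.69 without control 2. In the same fits the change of Tnfrsf1b was 1.17 and 2.15. Fadd (0.01) and Ripk1 (-0.12) were centred near 0. Fas did not pass the filter here, although its 11 and 18 counts with minocycline exceeded its 3 and 7 control counts. Of the 5 tested genes, Casp8, Tnfrsf1a and Tnfrsf1b had both minocycline libraries above both controls, an ordering shown by 15.9% of all tested genes. Fas and Mlkl, not tested here, had it too, and for Mlkl it rested on 4 and 2 counts against 1 and 1.

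Per length of transcript, the genes fell in a different order in each group. Levels per kilobase (CPM divided by the exon length of RefSeq-supported transcripts in kilobases) in control retinas were highest for Ripk1 (2.19), followed by Tnfrsf1a (1.64) and Fadd (1.19). The libraries of each of these 3 lay above those of the next gene in the order. Fas (0.197), Casp8 (0.196) and Tnfrsf1b (0.139) followed and were not separable from each other, and Mlkl (0.0353) and Ripk3 (0.0178) were lowest and likewise not separable. After light, Tnfrsf1a (8.43), Tnfrsf1b (4.22) and Ripk1 (2.61) led with overlapping neighbours, Fadd (1.64), Casp8 (1.40) and Fas (1.27) formed the middle, and Ripk3 (0.258) and Mlkl (0.189) remained lowest. With minocycline the order began with Tnfrsf1a (3.36), Ripk1 (1.95) and Fadd (1.16), each separate from the next, and Casp8 (0.425), Tnfrsf1b (0.406) and Fas (0.380) lay close together.

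Ratios within a library do not depend on the scaling between libraries. Tnfrsf1b per kilobase was 0.0642 and 0.101 of Tnfrsf1a in the controls, 0.320 in light 1 and 0.608 in light 2, and 0.116 and 0.126 with minocycline. Thus the receptor without a death domain gained on the receptor with a death domain in both light libraries, with no overlap between the 3 groups. The control ratios rest on 5 and 10 counts of Tnfrsf1b, so the small gap between control 2 (0.101) and minocycline A (0.116) is uncertain. Casp8 relative to Cflar, its catalytically inactive relative that limits death receptor signalling, was 0.0666 and 0.0289 per kilobase in the controls, 0.132 and 0.334 after light, and 0.115 and 0.114 with minocycline. Ripk3 relative to Ripk1 was 0 and 0.0145 in the controls, 0.0259 and 0.156 after light, and 0.0236 and 0.0133 with minocycline, where the low Ripk3 counts limit each value. The ratios are given as a description, and no test of them was run.

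**Figure D3:**
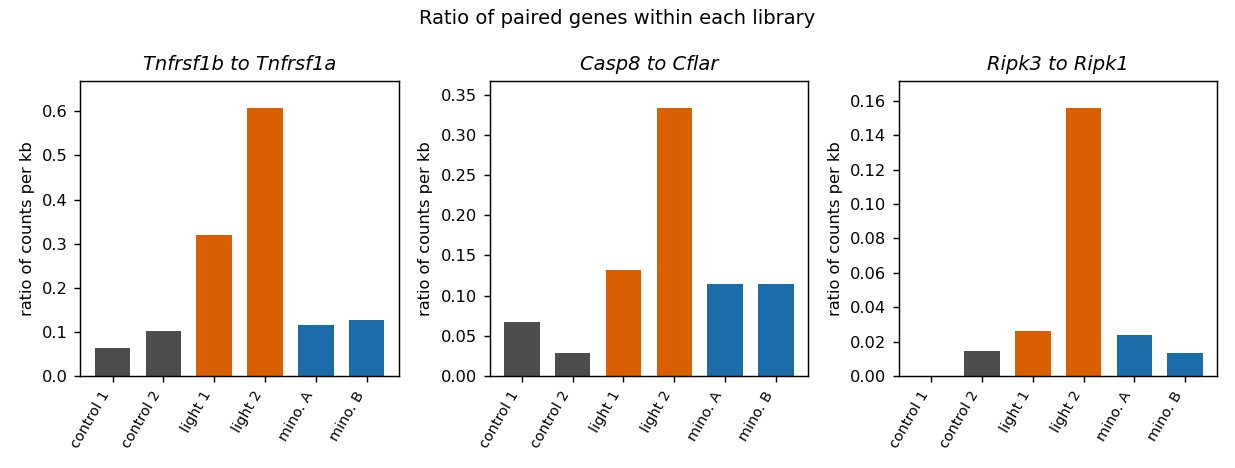
Ratio of counts per kilobase (y axes, from 0) of Tnfrsf1b to Tnfrsf1a, Casp8 to Cflar and Ripk3 to Ripk1 in each of the 6 libraries (x axes, mino. for minocycline; grey control, orange light, blue light plus minocycline). The highest bar of every panel is light 2, at 0.608, 0.334 and 0.156.

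Some markers of microglia and of other cell types were also higher after light. Relative to the control mean, the microglia list stood at 6.87 in light 1, 21.7 in light 2, 1.85 in minocycline A and 0.891 in minocycline B. Tnfrsf1b stood at 14.6, 46.2, 2.96 and 2.90 in the same libraries, Casp8 at 4.12, 10.2, 2.00 and 2.34, and Tnfrsf1a at 3.85, 6.43, 2.15 and 1.95. Fas stood at 5.62, 7.26, 2.22 and 1.65, and its light libraries differed by 1.29 times against 3.16 for the microglia list. In minocycline B the microglia list was below the control mean, while these 4 genes were above it. Of the 15 microglia markers, 6 were called higher after light by edgeR, with a median log2 fold change of 3.92 over the list. Both light libraries were above both controls for 14 of the 15. Of all tested genes, 7.52% were called higher after light and 30.6% had both light libraries above both controls. The list of 10 monocyte, neutrophil and lymphocyte markers summed to 0.845 to 3.61 CPM over all libraries, with 2 to 7 of its genes at 0. Of 7 markers of Müller cells and reactive glia, 4 were called higher after light by edgeR, with a median log2 fold change of 1.13 for the list, and its sum was 2270 and 1530 CPM in the controls, 2550 and 2900 CPM after light and 2710 and 2120 CPM with minocycline. Both minocycline libraries were above both controls for 2 of these 7, the acute-phase inhibitor Serpina3n and the filament protein Vim. This ordering was shown by 15.9% of all tested genes. Of 6 bipolar cell markers, 3 were called higher after light, and the list summed to 1060 CPM in both controls, 1450 and 1860 CPM after light and 1200 and 993 CPM with minocycline. Of 6 vessel markers, 2 were called higher after light. None of the Müller cell, bipolar cell and vessel markers was at 0 in any library. The part of these cell types in the levels of the 8 genes was not tested.

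Over the 6 libraries, log2 CPM of the 8 genes correlated to different degrees, given as a description of points that share 3 groups and a single strong light library. Pearson's r was 0.989 between Tnfrsf1a and Tnfrsf1b, 0.976 between Fas and Tnfrsf1b, 0.973 between Fas and Tnfrsf1a, and 0.932 between Casp8 and Tnfrsf1a. Fadd reached at most 0.724 (with Fas) and Ripk1 at most 0.837 (with Ripk3). Among 11293 genes with a mean of at least 5 CPM, the pattern most like that of Tnfrsf1b was shown by Rras (r = 0.9998), Pbxip1 and Rassf2, that of Tnfrsf1a by Amotl1 (r = 0.9984), Itga9 and Leprot, and that of Casp8 by Mr1 (r = 0.9981), Vcam1 and Serp1. For Fas they were Fam211a (r = 0.9956), Mpzl1 and Gldc, for Fadd Fbxo5 (r = 0.9821), Hddc2 and AU041133, and for Ripk1 Plcg1 (r = 0.9932) and Plbd2. For Mlkl they were Efhd2 (r = 0.9987), Il1r1 and Stc1, and for Ripk3 Plscr3 (r = 0.9935), Pag1 and Ssr4, with these last 2 genes of interest resting on few counts.

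The rest of the pathway was examined through 87 listed genes in 7 groups, of which 86 were in the table by symbol. After light, 11 of the 74 tested were called higher and 4 lower by edgeR, against 7.52% and 3.80% of all tested genes, and the median log2 fold change was 0.03 against 0.00253 over all genes. Of the ligands of the 3 receptors, Fasl and Tnf had few counts. Fasl, the ligand of Fas, held 1 and 2 counts in the controls, 3 and 6 after light and 1 in both minocycline libraries. Tnf, a ligand of both TNF receptors, held 8 and 1, 7 and 11, and 2 and 1 counts in the same order. Neither Fasl nor Tnf passed the filter in any comparison. Lta, lymphotoxin alpha and likewise a ligand of both TNF receptors, held 17 and 33 counts in the controls, 8 and 30 after light and 20 and 18 with minocycline, and it was tested but not called in the 3 comparisons (log2 fold change -0.86 after light, edgeR adjusted p = 0.349). Lta was named after its values were seen. Tnfsf10, the ligand TRAIL, which engages other receptors, held 9 and 5, 5 and 27, and 10 and 19 counts. Tnfsf12, the ligand TWEAK, was abundant and fell by 0.70 on the log2 scale (SE 0.16, edgeR adjusted p = 0.0219).

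Among the 8 tested further receptors, Tnfrsf21 (death receptor 6) and Eda2r rose after light, with log2 fold changes of 2.25 and 3.27 (edgeR adjusted p = 0.00806 and 0.0219). In the TNF receptor complex, 2 of 21 tested genes rose and 2 fell, where 7.52% of all tested genes were called higher and 3.80% lower. Birc3, a ubiquitin ligase that modifies Ripk1, rose by 2.36 and Map3k5, a stress kinase, by 0.97 on the log2 scale. Tnfaip3, the deubiquitinase A20 that restrains NF-kB, fell by 1.24 and Tab3, a subunit of the Map3k7 kinase complex, fell by 0.75. Tradd, the adaptor of Tnfrsf1a, had a log2 fold change of 1.21 and an edgeR adjusted p of 0.0883. Cflar was the called gene among 5 partners and inhibitors of Casp8, with a log2 fold change of 0.55 (edgeR adjusted p = 0.0375), and it was similar in both light libraries (50.7 and 49.8 CPM).

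Of the 13 other inputs and cofactors of necroptosis, 3 rose after light, where 7.52% of all tested genes were called higher. Tlr4, the lipopolysaccharide receptor, rose by 3.64 on the log2 scale, Eif2ak2, the double-stranded RNA kinase PKR, by 2.53, and Tlr3, the endosomal receptor of double-stranded RNA, by 1.80. Zbp1, a nucleic acid sensor that binds Ripk3, held 5 and 2 counts in the controls and 14 and 86 after light, with a log2 fold change of 3.29 that was not called by edgeR (adjusted p = 0.0641) and was called by DESeq2 (adjusted p = 0.0138). Downstream, Birc5, a mitotic protein of the inhibitor of apoptosis family, rose by 3.18, and Xiap, a direct caspase inhibitor, fell by 0.70 on the log2 scale. In the BCL2 family, 2 of 14 tested genes were called higher by edgeR, again beside 7.52% of all tested genes. They were Bid, which Casp8 cleaves to link death receptors to mitochondria, with a log2 fold change of 1.67, and the BH3-only protein Pmaip1 (Noxa), with 1.90. DESeq2 called neither (adjusted p = 0.0615 and 0.109), and it called the antiapoptotic Bcl2a1b higher (adjusted p = 0.0332), which held 2 and 3 counts in the controls and 10 and 63 after light and did not pass the edgeR filter.

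With the total library size in place of TMM, the median of all genes shifted to a log2 fold change of 0.24 after light. Under that scaling 15 pathway genes were called higher and 1 lower, while the 4 calls among the 8 genes were kept, and 13.5% of all tested genes were called higher and 0.927% lower. Without control 1 or control 2, 0 pathway genes were called in either direction, and without light 2 the numbers were 3 higher and 1 lower. Of all tested genes, 0.0269% were called higher without control 1, 0.135% without control 2 and 3.05% without light 2, where 0.372% were called lower. In the comparisons with minocycline, 0 of the pathway genes were called by edgeR. Against light alone, 17 of 77 tested had an unadjusted p below 0.05 in the lower and 7 in the higher direction, beside 12.1% and 9.04% of all tested genes. DESeq2 called 6 lower and 5 higher, beside 5.01% and 3.16% of all its tested genes. Cflar was lower in both minocycline libraries than in both light libraries (log2 fold change -0.69, edgeR adjusted p = 0.0769). The fitted change was -5.91 for Bcl2a1b, -2.99 for Birc5 and -2.58 for Zbp1, the largest of this comparison (edgeR adjusted p of 0.0844, 0.106 and 0.145). Bcl2a1b held 10 and 63 counts after light against 1 and 0 with minocycline, so its fitted size depends on the prior count, and it shares sequence with near-identical Bcl2a1 copies, which makes its counts uncertain. Against controls, 2 of 72 had an unadjusted p below 0.05, both in the higher direction, beside 5.39% of all tested genes in that direction and 1.62% in the lower. DESeq2 called 0, and the largest fitted change was that of Tlr4 (log2 fold change 2.41, edgeR adjusted p = 0.170).

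**Figure D4:**
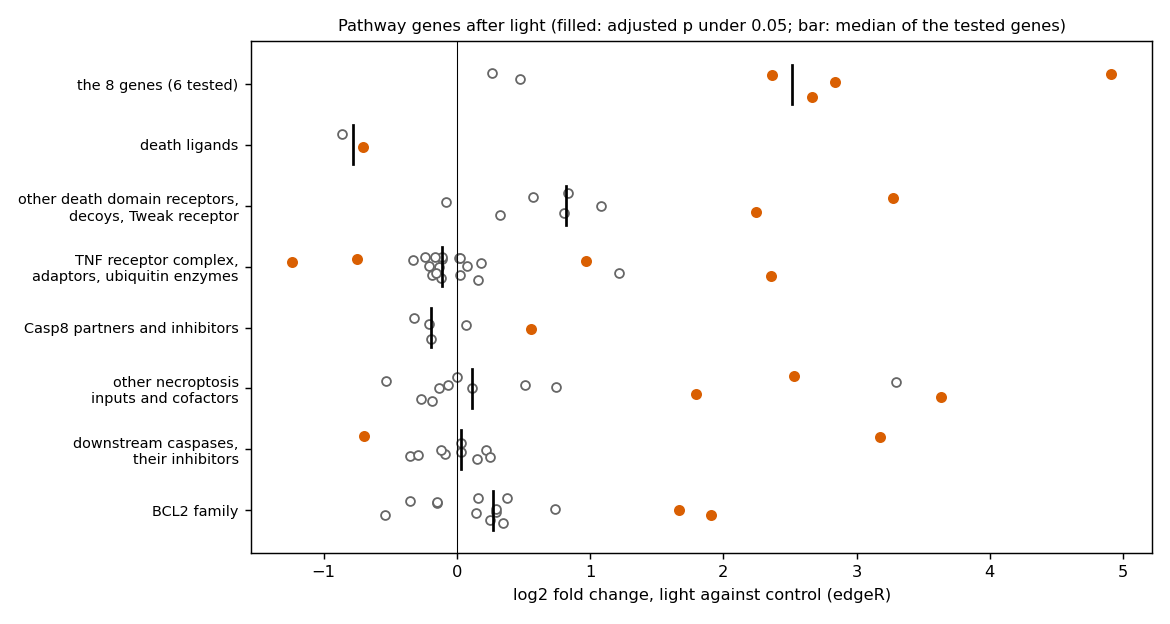
Fitted log2 fold change of light against control (x axis, edgeR) for the tested genes of the 8 followed here and of the 7 pathway groups (y axis). Filled points have an adjusted p below 0.05 and vertical bars are medians, 2.52 for the 6 tested of the 8 genes and 0.03 over the 74 pathway genes.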

How the data were processed

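RNA sequencing of 6 mouse retina libraries was examined, 2 each of control, light-exposed, and light-exposed and minocycline-treated mice. The authors prepared stranded poly-A libraries, sequenced single reads of 50 cycles, aligned them to mm10 with STAR within RNA Express, and deposited a table of counts. The deposited counts are whole numbers without scaling (15205930 to 22856922 per library), although the data statement calls them normalized. Versions, annotation and the strand setting are not given in the sources used here. Unused value columns numbered 0. Pairwise tests used edgeR 4.0.16 under R 4.3.3 (low counts removed by filterByExpr, TMM, robust quasi-likelihood F test, Benjamini-Hochberg adjustment over all tested genes). Genes with an adjusted p below 0.05 were called. The standard error of a log2 fold change was derived from the F statistic. The fit was tested on simulated data with 200 genes changed by 2 on the log2 scale. It called 182, 171 and 183 of them for light against control, minocycline against light and minocycline against control. It also called 22, 13 and 20 unchanged genes, in every comparison more than the share of 0.05 that the adjusted p allows. In the real libraries, 6 genes were called lower and 2 higher of 14750 for minocycline against light. How differences of many genes together, such as microglial RNA between the light libraries, affect the yield was not tested. The simulated yields are therefore not taken as the power in the real libraries. Within groups, replicate counts differed by more than sampling noise.

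Coordinates and lengths came from GENCODE M21 and RefSeq, with all 8 genes matched. Named genes were the 8, pathway genes called in any comparison or among the 3 largest changes, and Cflar, Fasl, Tnf, Tnfsf10, Zbp1 and Tradd. Likeness of pattern was Pearson's r of log2 CPM over 6 libraries, with the 3 highest genes named. Of the genes these rules name, 2 are not reported here. The 8 genes, the 7 pathway lists and the 11 marker lists were chosen with earlier results of these data known. Alternatives were DESeq2 1.42.0, other scalings, filters and thresholds, no robust estimation, a shared fit to 6 libraries, the replicate block, and each library left out in turn.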

Additional observations from a re-analysis of the deposited data

How the results depend on the processing

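For light against control, the count of the 8 genes called higher was 4 with every scaling, with no filter, in the fit to all 6 libraries, without robust estimation and with DESeq2, while 5.57% to 13.5% of all tested genes were called higher under these settings. It was 1 with at least 10 counts required in every library, which removes Casp8, Fas and Tnfrsf1b from the test, and 0 to 5 when each library was left out in turn (0 without control 1 and without control 2). Pathway genes called higher numbered 6 with at least 10 counts in every library, 6 with the added fold cutoff and 0 to 14 with a library left out, beside 6.77%, 2.89% and 0.0269% to 11.4% of all tested genes. Those called lower numbered 1 with the total library size, 0 with the fold cutoff and 0 to 3 with a library left out, beside 0.927%, 0.0279% and 0.0% to 3.13%. For minocycline against light, genes of the 8 called lower numbered 1 with no filter, 2 in the fit to all 6 libraries, 2 with DESeq2 and 3 at an adjusted p below 0.10, beside 2.63%, 2.40%, 5.01% and 4.10% of all tested genes, and 0 to 3 with a library left out, beside 0.033% to 4.64%. Pathway genes called lower numbered 5 with no filter, 3 in the fit to all 6 libraries, 6 with DESeq2, 6 at an adjusted p below 0.10 and 0 to 7 with a library left out, and those called higher 2 with no filter, 5 with DESeq2 and 2 at an adjusted p below 0.10, beside 1.34%, 3.16% and 1.88%. For minocycline against control, pathway genes called higher numbered 1 with no filter and 0 to 2 with a library left out, beside 1.01% and 0.0203% to 3.04%. Apart from the filter, the cause of these shifts was not tested. The near-zero log2 fold change of Fadd in that comparison reversed to -0.0153 with DESeq2 size factors, -0.00184 with upper quartile scaling, -0.0103 with no filter, -0.0357 in the fit to all 6 libraries and -0.0181 with DESeq2. With a library left out, it ranged from -0.208 to 0.256 and that of Ripk1 from -0.308 to 0.0818. As a ratio of counts without division by length, the mean of control, light and minocycline was 0.146, 0.822 and 0.214 for Tnfrsf1b to Tnfrsf1a, 0.0166, 0.0812 and 0.0399 for Casp8 to Cflar, and 0.0022, 0.0277 and 0.00562 for Ripk3 to Ripk1, in the same order of groups as per kilobase.

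The sample titles number the replicates of all 3 groups, but the 2 minocycline columns of the count table could not be told apart by number. In control and light the deviations of same-numbered libraries did not correlate (r = -0.0107), so the numbers were not taken to pair them. With the number as a replicate block, 4 of the 8 genes and 14 pathway genes were called higher and 5 pathway genes lower, beside 11.6% and 5.97% of all tested genes. For the other 2 comparisons no paired analysis was possible because the minocycline columns could not be matched to their numbers. Groups of 2 permit no outlier test, and with 3 to 11 counts of Casp8, Fas and Tnfrsf1b in a control library the size of their folds is imprecise. When a library is left out, the lone library of its group is assumed to vary like the other group. At 0 to 4 counts in 5 of 6 libraries, differences of Ripk3 and Mlkl were not detectable at this depth outside light 2.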
